A study of Homo sapiens with 20 samples.

Results

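Kinesin genes (KIF) and centrosomal CEP genes were examined for N6-methyladenosine (m6A), a methyl mark on adenosines of messenger RNA, in a cisplatin-sensitive and a cisplatin-resistant human bladder cancer line. Members were all protein-coding genes of the GENCODE 44 annotation (hg38) whose symbol starts with KIF followed by a digit or C, or with CEP followed by a digit. This gave 80 of 20046 protein-coding genes, of which 42 were KIF genes and 38 were CEP genes. A gene was called marked in a library when the summit of a peak, its highest point, lay in an exon of any of its transcripts.

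T24 is an established human bladder cancer line, and T24R2 is a line derived from it by serial exposure to cisplatin. By the study's methods T24R2 was maintained in medium with cisplatin, although the sample labels list the same medium for both lines, so the history of selection and the drug in the medium cannot be told apart in the comparison of the lines. Both lines carry the genotype label WT and were grown in RPMI with fetal bovine serum to day 3. Each line had 5 immunoprecipitated libraries with an anti-m6A antibody and 5 input libraries, and the 10 peak lists of immunoprecipitate over input are used here. The labels do not say whether the replicates were separate cultures, so p-values measure the spread between these libraries, which may be technical.

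Kinesins are motors that walk along microtubules or disassemble them. Some carry vesicles, organelles and ciliary cargo, and others build and position the mitotic spindle. CEP proteins sit at the centrosome, the organelle that organises microtubules, where they build new centrioles, anchor the centriole to the membrane as the base of a cilium, or tie centrioles together. m6A is written by the METTL3-METTL14 complex within the DRACH motif, in which the methylated A is preceded by A, G or T and then A or G, and followed by C and then A, C or T. The mark is known to concentrate in long internal exons and near stop codons.

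The peak lists held 17203 to 22901 peaks in T24 and 22671 to 33120 in T24R2, and they hold no read counts, so the depth behind a peak is unknown. A gene without a peak may be unmethylated, weakly expressed or not expressed, and these cannot be told apart from peaks alone. Column 7 of each list, the fold enrichment of immunoprecipitate over input at the summit, is given below as a fold and as its percentile within the library's own list. The lists carry no strand, so peaks in overlapping genes on opposite strands cannot be assigned to one of them. Of 14 epithelial and urothelial marker genes 4 were marked in at least 1 library, as were 3 of 4 mesenchymal genes and 2 of 5 blood and endothelial genes. KRT7, ZEB1, CDH2 and the endothelial gene PECAM1 were marked in all 10 libraries, and no peak lay in EPCAM, CDH1, FN1, PTPRC, CD3E or VWF. GATA3, a urothelial transcription factor, was marked in 5 T24 and 0 T24R2 libraries, and CD68 in 5 and 1. The part of these markers in the results was not tested.

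The sequences below show a stretch near the median summit in the genes on which the results turn. Each is 29 nt of the spliced transcript (GENCODE 44, hg38), 5′ to 3′, centred on the DRACH nearest to the median summit whose window lies in a single exon, with that DRACH in capitals. The first is a region called in T24 alone, and the next pair are the last exons of CEP57 and its paralogue. Those of CEP164 and CEP162 are among the regions with the highest enrichment. That of CEP89 was called in T24R2 alone, and that of KIF17 in 1 T24 and 5 T24R2 libraries. The DRACH lay 37 nt before the median summit in the CEP57 upstream exon and 18 nt before it in CEP164. Those windows therefore do not hold the summit, and in the others the DRACH lay within 10 nt of it.
CEP57, upstream exon: ttgctttctattGGACTaaatcgttaagt
CEP57, last exon: ctggaatcacagGGACCacaaataagaaa
CEP57L1, last exon: tattcagcaagaAGACAgctaccctaaag
CEP164, 3′UTR: agctcttgtcatTGACAtggcaagctgat
CEP162, coding exon: aagacctctcaaAAACTgtggagaggctt
CEP89, last exon: cgtctctcaggcAGACCtgctggacggct
KIF17, coding exon: acaactacgatgAGACActcagcacgctg
In hg38 these lay at chr11:95790082-95790110 (+) for the CEP57 upstream exon, chr11:95831114-95831142 (+) for the CEP57 last exon, chr6:109162802-109162830 (+) for CEP57L1, chr11:117412381-117412409 (+) for CEP164, chr6:84152841-84152869 (-) for CEP162, chr19:32879209-32879237 (-) for CEP89 and chr1:20704592-20704620 (-) for KIF17. A DRACH within 50 nt of a summit was common on either strand. Averaged over the 10 libraries, 92.8% of member summits had one on the sense strand of the representative transcript and 70.7% on the antisense strand. Over all protein-coding genes the shares were 90.2% and 70.3%, so the motif was near member summits about as often as near all others.

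Most KIF and CEP genes were marked. A peak summit lay in an exon of 58 of the 80 genes (72.5%) in at least 1 library, against 51.1% of all protein-coding genes. In all 10 libraries 31 genes (38.8%) were marked, against 27.5%. These are long transcripts, with a median of 5578 nt and 19 exons, against 2885 nt and 8 exons over all protein-coding genes. Of the KIF genes 31 were marked and 12 were marked in all 10 libraries, and of the CEP genes 27 and 19.

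**Figure D1:**
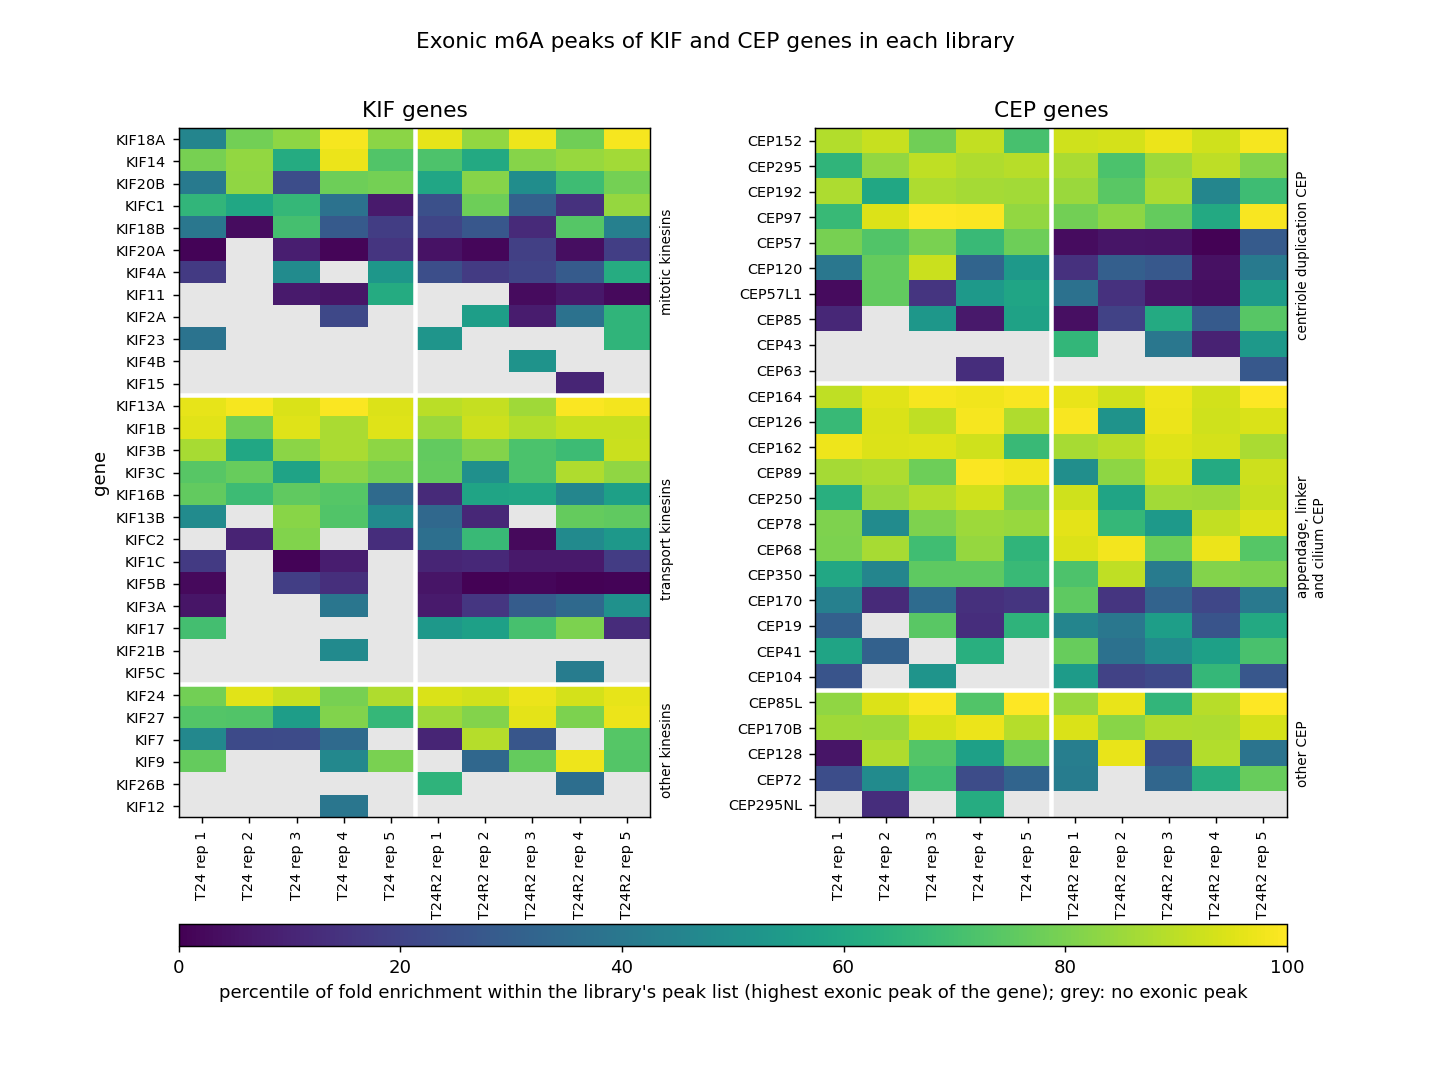
Rows are the 58 KIF and CEP genes with an exonic peak, ordered by role, and columns are the 5 T24 and 5 T24R2 libraries. Colour gives the percentile of the fold enrichment of the gene's highest exonic peak within its library, and grey cells have no exonic peak. CEP57 is at percentiles of 67.9 or more in T24 and of 28.6 or less in T24R2, but these are different sites. In T24 the highest peak is mostly one upstream of the representative transcript. In T24 replicate 5 and in T24R2 it is the peak in the last exon.

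Among the mitotic kinesins, which act on the spindle, 12 of 15 genes were marked and 5 were marked in all 10 libraries: KIF14, KIF18A, KIF18B, KIF20B and KIFC1. KIF4B, a near-identical copy of KIF4A, had a peak in 1 library. Multimapping reads were removed, so reads that match both copies equally were lost to both. No peak was called in KIF2C, the microtubule-depolymerising kinesin of the centromere, or in KIF22. Among the transport kinesins 13 of 17 were marked and 5 were marked in all 10 libraries: KIF1B, KIF3B, KIF3C, KIF13A and KIF16B. KIF1A, KIF5A, KIF21A and KIFC3 had no peak. Of the other kinesins 6 of 10 were marked, and KIF24 and KIF27 were marked in every library.

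Of the CEP genes of centriole duplication 10 of 13 were marked, 7 of them in all 10 libraries: CEP57, CEP57L1, CEP97, CEP120, CEP152, CEP192 and CEP295. Of the CEP genes of centriolar appendages, the centriole linker and the cilium, 12 of 15 were marked and 9 were marked in all 10 libraries. CEP290, a large protein of the ciliary gate, was not marked in any library although its transcript has 54 exons and 7824 nt. Of the other CEP genes 5 of 10 were marked. Beside them, 35 of 46 partner genes of the spindle and centrosome were marked, and 22 were marked in all 10 libraries. PLK4, PCNT and AURKA were among the 22. Of the γ-tubulin complex, TUBGCP4 and TUBGCP6 were too, whereas TUBGCP3 and TUBGCP5 had no peak. Between these, TUBG1 was marked in 1 T24 and 5 T24R2 libraries, and TUBGCP2 in 1 T24 library.

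T24R2 libraries marked more members on average, as they did more genes in all. Replicates 1 to 5 of T24 marked 46, 36, 43, 48 and 40 members, and those of T24R2 marked 48, 46, 49, 51 and 51. The means were 42.6 ± 4.78 and 49.0 ± 2.12 (SD, n = 5), and the groups overlapped. As shares these were 53.3% and 61.3% of members, and the same libraries marked 36.0 ± 1.74% and 40.6 ± 2.39% of all protein-coding genes. The lists of T24R2 were also longer, and members held 0.506 ± 0.0305% of the peaks in T24 and 0.477 ± 0.0212% in T24R2.

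Long internal exons held a peak summit more often than short ones. Of 46 internal exons of 400 nt or more in the members' representative transcripts, 38 (82.6%) held a summit in at least 1 library, and 25 did in all 10. Of 1475 shorter internal exons 59 (4.00%) did, and none did in all 10 libraries. Over all protein-coding genes the shares were 63.3% and 4.04%. Members with an internal exon of at least 400 nt were marked in 28 of 30 genes, 22 of them in all 10 libraries, whereas 29 of 48 members whose internal exons were all shorter were marked, 9 in all 10. In percent, 93.3% and 73.3% of members with a long internal exon were marked in at least 1 and in all 10 libraries, against 73.0% and 51.8% of all protein-coding genes with one. Without a long internal exon the shares were 60.4% and 18.8% of members, against 47.9% and 21.9% of all protein-coding genes. These are counts over genes and exons, which are not replicates, and no test was made. A longer exon has more room for a summit, and no rate per nt was taken.

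**Figure D2:**
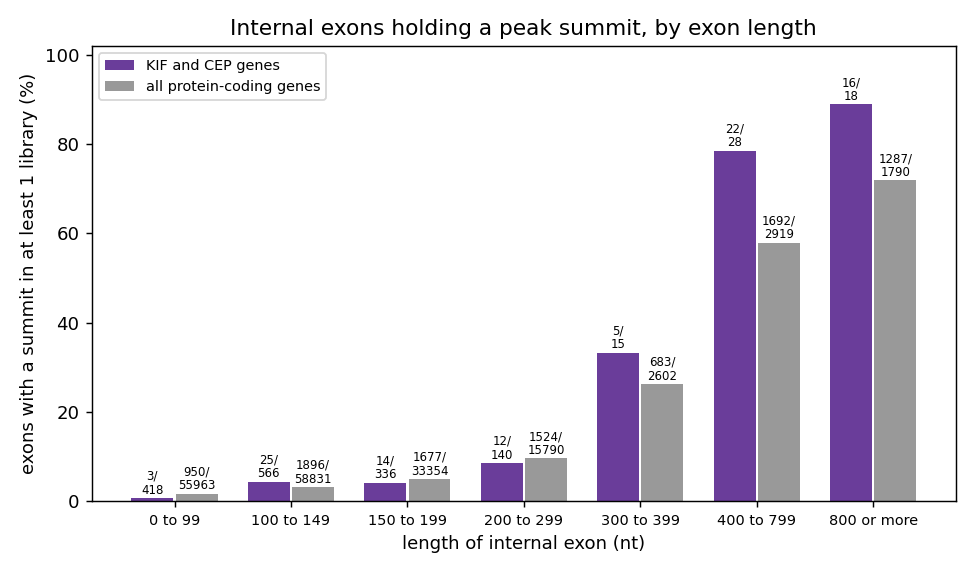
The bars give the percentage of internal exons with a peak summit in at least 1 of the 10 libraries, by exon length in nt, for KIF and CEP genes and for all protein-coding genes, with the counts above each bar. The share in KIF and CEP genes is 0.718% below 100 nt and 88.9% at 800 nt or more.

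The 3 longest of these exons were exon 15 of CEP295 and exon 12 of KIF26B (3403 nt) and of KIF26A (2917 nt), and the last 2 held no summit in any library. Exon 15 of CEP295 (3505 nt), which is needed for centriole maturation, held a summit in 9 libraries. Exon 30 of CEP250 (2616 nt), the linker that holds centrioles together, did in 10. Exon 11 of KIF24 (2247 nt), a kinesin known to restrain cilium assembly, did in 10 and held 3 separate regions called in all 10 libraries. The 8 long exons without a summit lay in KIF26A and KIF26B, which held 5 of them, and in KIF17, KIF7 and CEP290. KIF26A had no exonic peak anywhere, and KIF26B had one in 2 T24R2 libraries.

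On the representative transcript 75.9 ± 2.72% of member summits lay in coding sequence, 20.7 ± 1.65% in the 3′UTR and 3.43 ± 1.38% in the 5′UTR (mean ± SD over 10 libraries). Over all protein-coding genes the means were 60.3%, 32.6% and 7.12%. The last of 10 equal bins of the coding sequence was the fullest, with 15.1% of member summits against 9.96% over all protein-coding genes. Of the member regions 27.4% lay within 400 nt of the stop codon, against 33.1% of all, and 61.6% lay in internal exons, against 43.0%.

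**Figure D3:**
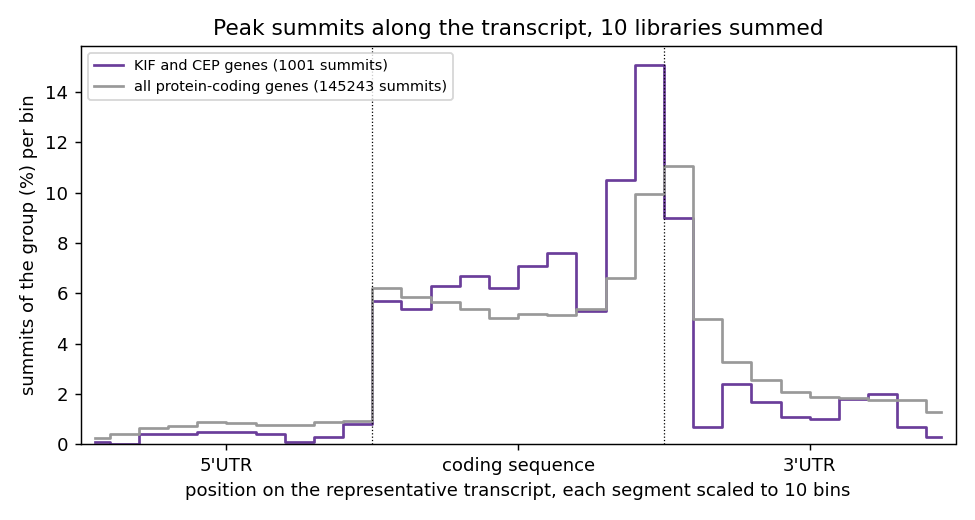
The lines give the percentage of summits in each bin along the representative transcript, with the 5′UTR, coding sequence and 3′UTR each scaled to 10 bins, for 1001 summits of KIF and CEP genes and 145243 of all protein-coding genes, summed over the 10 libraries. Both lines peak around the stop codon, at 15.1% just before it in KIF and CEP genes and at 11.1% just after it in all genes.

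When the peaks of the 10 libraries were merged, 186 regions had a summit in a member exon, of 25300 in exons of protein-coding genes and 43676 in all. A library is said below to have a region when any of its peaks falls in it. Of the member regions 58 (31.2%) were called in all 10 libraries, against 31.5% of all coding regions. CEP170B, a paralogue of the subdistal appendage protein CEP170, had the most such regions with 6 of its 13. KIF3C had 5, KIF24 had 4 and KIF3B had 3, and 12 genes tied at 2. KIF3C has no long internal exon, and its regions lay in its first exon of 2125 nt, in exon 2 and in the 3′UTR. KIF3B and KIF3C are motor subunits of the kinesin-2 family. CEP350 had 13 regions and CEP250 had 11, of which 1 and 2 were called in all 10.

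By median percentile the highest regions called in all 10 libraries were those of CEP164, CEP72, CEP126, CEP162 and KIF1B. CEP164, a distal appendage protein needed to dock the centriole at the membrane, had a peak in its 3′UTR, 247 nt after the stop codon at the median summit (chr11:117412061-117412647). Its folds were 14.8, 15.4, 21.5, 20.1 and 19.4 in T24 replicates 1 to 5 and 16.7, 16.5, 16.7, 15.8 and 27.1 in T24R2 replicates 1 to 5. The values overlapped between the lines, the median percentile was 97.1, and the log2 difference between T24R2 and T24 was -0.06 (SE 0.24, limma adjusted p = 0.949).

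CEP126, a protein of the centrosome and primary cilium, had its strongest region 103 nt into the 3′UTR, at a median percentile of 93.6. Its folds ranged from 9.29 to 22.3 in T24 (median 14.5) and from 6.38 to 20.6 in T24R2 (median 15.8). CEP162, which links centrioles to the transition zone of the cilium, had its strongest region in coding exon 23 of 27, a 635 nt exon, at a median percentile of 93.2. Its folds were 20.7, 14.6, 17.0, 15.4 and 8.19 in T24 and 11.7, 14.6, 14.4, 16.0 and 12.5 in T24R2, and the lines overlapped. KIF1B, a transport kinesin of mitochondria and synaptic vesicle precursors, had a region at percentile 91.7 in the exon of a shorter isoform that the representative transcript lacks. CEP72 came second by rank, at percentile 95.9, but the region is 4218 bp wide. It had a summit in a CEP72 exon in 3 libraries, and none of the 10 highest peaks did, so its enrichment cannot be credited to the spliced CEP72 transcript.

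CEP57 had the single member region called in all T24 libraries and in no T24R2 library, although as a gene it was marked in all 10. CEP57 is a centrosomal protein that stabilises microtubules and works with its paralogue CEP57L1 to keep new centrioles attached to the old ones. A region of 150 bp (chr11:95790067-95790216) had a peak in 5 of 5 T24 libraries and in 0 of 5 T24R2 libraries. The folds in T24 replicates 1 to 5 were 11.3, 8.93, 11.3, 8.86 and 8.42, at percentiles of 79.5, 72.7, 80.0, 67.9 and 70.2. The exact Fisher test gave p = 0.00794 unadjusted, the smallest that 5 against 5 libraries can give and the same as for 3 regions of CEP89 and CEP68 called in T24R2 alone, and 0.195 after Benjamini-Hochberg adjustment over all 43676 regions.

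The 5 summits lay at 95790101 to 95790140, which is 358 to 397 nt upstream of the start of the representative CEP57 transcript. All of them were in the first exon of isoform 207 of CEP57 (95789965 to 95790142), where they fall in its 5′UTR, and in no other CEP57 exon. The gene FAM76B starts on the opposite strand 716 nt from the CEP57 start, and the summits were 319 to 358 nt from it. None of the summits lay in a FAM76B exon, but 61 bp of the region overlap the first exon of FAM76B isoform 208. The strand of the methylated RNA cannot be told apart between the divergent genes.

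**Figure D4:**
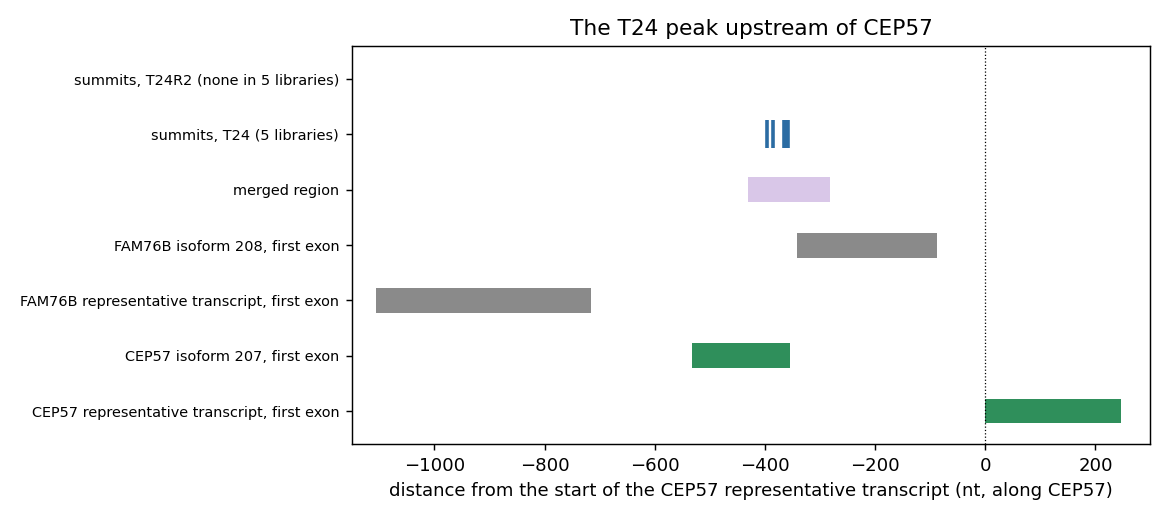
The map gives the first exons of CEP57 (green) and FAM76B (grey) transcripts, the merged region and the 5 T24 summits, by distance in nt from the start of the representative CEP57 transcript. The summits lie 358 to 397 nt upstream of that start, inside the first exon of CEP57 isoform 207, and no T24R2 library has one.

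The other region of CEP57 was called in all 10 libraries. It lies in the last exon, 129 nt before the stop codon (chr11:95830893-95831228). Its folds were 2.41, 2.64, 6.98, 2.40 and 9.54 in T24 and 2.85, 3.71, 3.20, 2.30 and 5.23 in T24R2, and the lines overlapped. The log2 difference was -0.51 (SE 0.35, limma adjusted p = 0.568), and it was -0.18 without T24 replicate 5. All 10 summits also lay in exons of MTMR2 on the opposite strand, so this region is uncertain for CEP57.

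CEP57L1 also had a region near its stop codon and one upstream of its start. In its last exon, 161 nt before the stop codon (chr6:109162684-109163014), all 10 libraries had a peak, with folds of 2.91, 9.41, 4.65, 7.25 and 7.33 in T24 and 4.72, 4.73, 3.25, 3.20 and 7.07 in T24R2. The values overlapped, and the log2 difference was -0.63 (SE 0.31, limma adjusted p = 0.372). Upstream, 265 nt before the start of its representative transcript and in the 5′UTR of another isoform, a single T24R2 library had a peak, at a fold of 5.66.

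The partners that act beside CEP57 in centriole duplication had no 5′UTR peak. CEP63 had a region in 1 T24 library and another in 1 T24R2 library, in coding sequence and 3′UTR. CEP152, the scaffold that recruits the duplication kinase PLK4, had 2 regions and CEP192 had 2, all in coding sequence and all called in all 10 libraries. On the representative transcript, which leaves out the upstream regions of CEP57 and CEP57L1, 8 member regions in 6 genes lay in the 5′UTR. None of these 8 was called in all 10 libraries. Those of KIF5B and CEP68 were called in 3 T24 and 5 T24R2 libraries each.

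More regions were called in T24R2 without T24 than the reverse, in members as in all genes. Of the 186 member regions 3 (1.61%) were called in 5 T24R2 libraries and in no T24 library, against 2.30% of coding regions, and 1 (0.538%), that of CEP57, in T24 alone, against 0.953%. At an unadjusted p under 0.05 in the exact Fisher test 8 regions (4.30%) were more frequent in T24R2, against 6.0% of coding regions, and 1 (0.538%) in T24, against 1.71%. The member shares were below those of all coding regions, but each rests on 1 to 8 regions, too few to set the members apart. The difference was not tested. After adjustment no region of the 43676 passed 0.05, whereas 4021 did unadjusted.

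CEP89, a distal appendage protein, had a T24R2 region in its last exon, 66 nt before the stop codon (chr19:32879164-32879432). Its folds in T24R2 replicates 1 to 5 were 4.26, 5.05, 4.63, 8.18 and 3.85, at percentiles of 10.3 to 61.1, and no T24 library had a peak (exact Fisher p = 0.00794, adjusted p = 0.195). It was a weak region, and when every list was cut to its strongest 17203 peaks, the length of the shortest, 1 T24R2 library kept it (exact Fisher p = 1.0).

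CEP68, a protein of the fibres that link centrioles, had 2 such regions in exons of isoforms other than the representative one. One (chr2:65074195-65074402) had folds of 7.24, 9.12, 6.95, 6.39 and 4.69 in T24R2 and no peak in T24. The other (chr2:65070558-65070987) had folds of 6.75 to 7.84, and all 5 summits also lay in an exon of RAB1A on the opposite strand. In lists of equal length each was left in 3 T24R2 libraries (exact Fisher p = 0.167). A further region of CEP68, in its 1527 nt coding exon, was called in all 10 libraries.

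The other regions that passed unadjusted were called in 5 T24R2 libraries and 1 T24 library, or in 4 and none, each with an exact Fisher p = 0.0476 and an adjusted p = 0.517. They lay in KIF17 (coding exon 5), CEP170B (5′UTR), KIF1C (3′UTR), KIF23 and CEP170 (coding exon 14, in 4 T24R2 libraries). KIF17 is the homodimeric kinesin-2 of cilia and dendrites, and its folds were 6.85, 8.30, 8.30, 11.1 and 4.11 in T24R2 and 9.63 in the T24 library with a peak. The CEP170B region, 107 nt before the start codon, had folds of 13.7, 6.91, 11.2, 8.91 and 11.1 in T24R2 and 6.69 in 1 T24 library. Those of KIF1C were low in every library that had them, at 2.31 to 4.29. The KIF23 region overlapped the antisense gene KIF23-AS1, and its summits were in a KIF23 exon in 2 of the 5 T24R2 libraries. In lists of equal length the regions of CEP170B and KIF23 still passed unadjusted, and those of KIF17, KIF1C and CEP170 did not.

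By gene, 2 members were marked more frequently in T24R2 at an unadjusted p under 0.05, against 2.96% of protein-coding genes, and none in T24, against 1.16%. These were KIF17, marked in 1 T24 and 5 T24R2 libraries, and CEP43, a centrosomal protein needed for cilium formation, marked in 0 and 4 (exact Fisher p = 0.0476 each, adjusted p = 1.0). No gene of the 20046 passed after adjustment, and 827 did unadjusted. In lists of equal length no member passed unadjusted.

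Fold enrichment was compared over the 9577 regions called in all 10 libraries with limma. Of the 58 member regions 34 were lower and 24 higher in T24R2, with a median log2 difference of -0.04, against 0.01 over coding regions. A single member region passed an adjusted p of 0.05, higher in T24R2, against 0.449% of regions called higher and 0.365% called lower.

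That region was assigned to KIF7, a kinesin-like regulator of Hedgehog signalling at the cilium tip, but it spans 3399 bp (chr15:89629426-89632824). Its folds were 6.21, 7.32, 9.18, 5.80 and 6.48 in T24 and 23.2, 24.4, 18.7, 16.7 and 12.5 in T24R2, so the lines did not overlap. The log2 difference was 1.32 (SE 0.26, limma adjusted p = 0.0137). None of the 10 highest peaks had its summit in a KIF7 exon. The 2 T24R2 libraries with a summit in a KIF7 exon had it in an exon of TICRR on the opposite strand as well, so the difference cannot be credited to KIF7. With the mean over all peaks of the region in place of the highest, the log2 difference was 0.94 and the limma adjusted p was 0.0978. Of the 58 member regions 50 had all 10 highest summits in the member's exons.

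CEP120, which is needed for centriole elongation, had the largest fall among members, in its last exon 109 nt before the stop codon. The folds were 6.57, 9.43, 15.2, 5.49 and 6.88 in T24 and 4.12, 5.97, 4.98, 3.33 and 5.93 in T24R2. The highest T24R2 value lay above the lowest T24 value. The log2 difference was -0.94 (SE 0.28) and did not pass (limma adjusted p = 0.121). KIF18A, the kinesin that dampens chromosome movement at the metaphase plate, was at 0.50 (SE 0.24, limma adjusted p = 0.358) in a region at coding exon 15, where 7 of the 10 highest summits lay in a KIF18A exon.

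**Figure D5:**
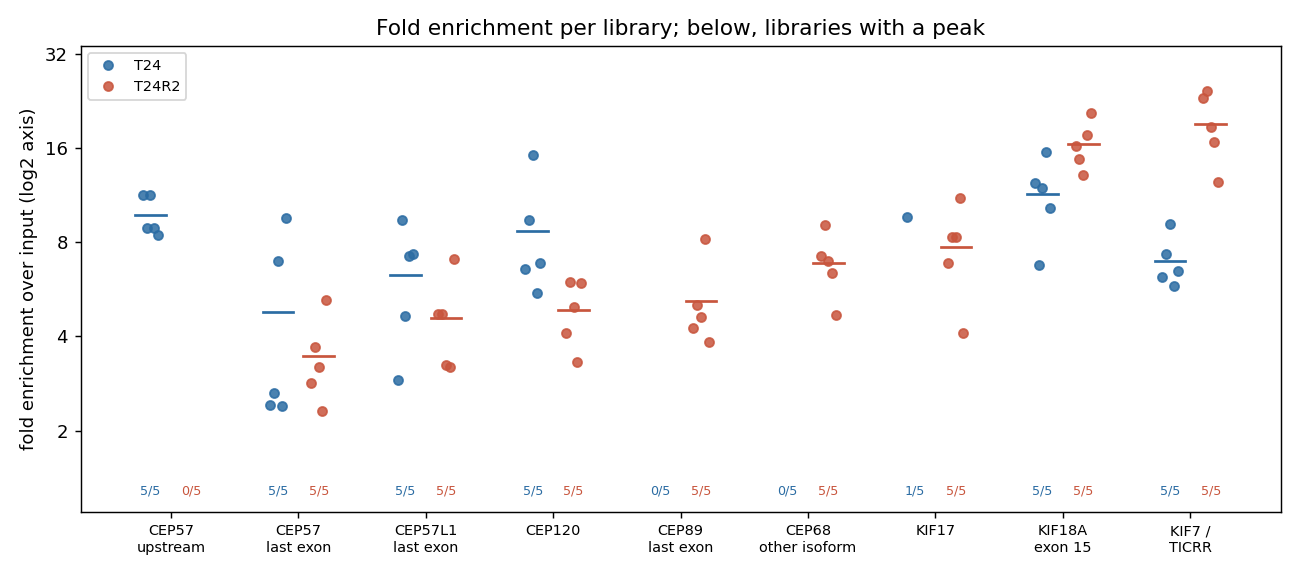
Points are the fold enrichment over input of the highest peak of each library in the region, on a log2 axis, for T24 and T24R2, with the mean as a line where all 5 libraries have a peak and the number of libraries with a peak below. CEP57 has its upstream peak in the 5 T24 libraries alone, those of CEP89 and CEP68 are in the 5 T24R2 libraries alone, and the region shared by KIF7 and TICRR is higher in T24R2.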

How the data were processed

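MeRIP-seq libraries of T24 and T24R2 (5 immunoprecipitated and 5 input each) were processed by the authors with STAR 2.7.0 (hg38), SAMtools 1.10 and MACS2 3.0.0a6, per the labels and the study's methods. Multimapping and duplicate reads were removed, and each library's peaks were called on their own, so a library's list length moves with its depth, which is unknown. In the deposited lists the authors' column 7 is a fold enrichment (ratio over input), columns 8 and 9 are −log10 p and q values, and column 5 is a score, a whole-number form of column 9 that was not used. The deposited merged list, whose coordinates have no unit, was identical to a bedtools 2.31.1 merge of the 10 lists.

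Summits were set on GENCODE 44 exons, with MANE Select as the representative transcript of all 80 members. Presence was tested per region and per gene by two-sided Fisher exact tests, and log2 fold enrichment, quantile-normalized, by limma 3.58.1 in R 4.3.3, with Benjamini-Hochberg adjustment over all regions or genes. The tests were checked on simulated data with planted differences. For presence these were regions in every library of a line and in none of the other. Such regions always pass unadjusted, so their recovery could not fail. Shares and positions have no test. Members and lists were chosen with earlier results of these data known. Named genes were CEP57, CEP57L1, members passing a test, and the 5 members with most regions, or the highest percentile, in all 10 libraries. Alternatives were other peak thresholds, equal list lengths, other exon sets, other scalings, the omission of single libraries and a replicate block. Sequences on chromosome 8 were not printed.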

Additional observations from a re-analysis of the deposited data

Results flagged for a closer look

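In 42 groups of 5 libraries examined with Dixon's test, 2 held a library far from the others, and chance flags about 1 in 20 groups. The CEP164 3′UTR region had a fold of 27.1 in T24R2 replicate 5, against a median of 16.7 in that line. The CEP89 last exon region had a fold of 8.18 in T24R2 replicate 4, against a median of 4.63.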

How the results depend on the processing

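Peak thresholds and list length moved the counts between the lines. Member regions more frequent in T24R2 numbered 8, against 4 at −log10 q of at least 10 and 3 with equal lists of 17203 peaks. There were 16 where a peak had to cover at least 50% of the region. Regions were counted anew under each setting. Of the 8, only those of CEP170B and KIF23 still passed at −log10 q of at least 10 and with equal list lengths. Member genes more frequent in T24R2 numbered 2, against 0 at −log10 q of at least 5, 0 at 10 and 0 with equal lists. At a fold of at least 4 there was 1, and 1 gene was more frequent in T24. The share of members marked in at least 1 library was 58.8% at −log10 q of at least 10 and 66.3% with equal lengths (41.8% and 45.9% of all coding genes), and that in all 10 was 27.5% at −log10 q of at least 10 and 30.0% at a fold of at least 4 (15.5% and 22.4%). The CEP57 upstream region passed unadjusted under all 6 alternatives, of which any overlap with a member exon leaves its counts unchanged. A region called in 5 against 0 libraries passes whichever library is left out, so that omission could not fail. The same holds for the other regions that passed unadjusted, called in 5 against 1 or 4 against 0 libraries. For them too the omission could not fail. In limma the 1 member region called became 0 with the mean over peaks and was 1 without each library.

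Classes on any transcript gave 70.6% coding and 23.0% 3′UTR. DRACH within 25 nt was found at 76.1% of member summits (71.3% of all coding) and GGAC within 50 nt at 42.7% (49.3%). Leaving out each library gave 8 to 12 regions more frequent in T24R2 and 1 to 2 in T24, 2 to 4 and 0 to 0 genes, 70.0% to 72.5% of members marked and 38.8% to 42.5% in all libraries. It gave 3.21% to 3.66%, 75.4% to 76.4% and 20.4% to 21.0% of summits in 5′UTR, coding sequence and 3′UTR, and 92.2% to 93.1% with DRACH. The cause of these shifts was not tested.

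Same-numbered libraries of the lines showed little shared deviation (correlations of -0.04 to 0.12 across regions, highest for own number in 1 of 5 pairs). Whether same-numbered libraries shared a preparation was not tested. With a replicate block 1 member region (KIF7, limma adjusted p = 0.0273) and 67 of 9577 regions passed, against 78 without it. Leaving out single libraries gave 40 to 74 regions, with 40 without T24 replicate 3, 41 without T24R2 replicate 4 and 45 without T24R2 replicate 2. The difference at the CEP57 last exon ranged from -0.71 to -0.18. Depth is unknown, so a missing peak cannot be read as a missing mark.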
